A study of Mus musculus with 12 samples.

Results

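The receptor genes for glutamate and GABA, the main excitatory and inhibitory transmitters of the brain, were examined in cultured mouse neural stem cells (NSCs). Members were chosen by symbol: every gene in the deposited tables that encodes a subunit of an ionotropic glutamate receptor (AMPA, kainate, NMDA and delta), a metabotropic glutamate receptor, a GABA-A receptor including the rho subunits, or a GABA-B receptor. The rule used no measured value and found 47 of 45792 genes, 26 for glutamate and 21 for GABA. They lie on 13 chromosomes, with 4 on the X chromosome (Gria3, Gabra3, Gabre and Gabrq).

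Per the study's methods, NSCs were isolated from the forebrain of pups aged 1 to 2 days, and each pup gave its own culture. Second-passage cells were grown in serum-free medium with EGF, FGF, ITSS and B-27. The study asked how loss of Ncf1, which encodes a cytosolic subunit of the NADPH oxidase Nox2, changed the NSC transcriptome, and what the secreted growth factor binding protein Igfbp2 did to cells without it. The 3 groups of 4 libraries compared were untreated WT (C57BL/6J) NSCs, replicates 9 to 12, vehicle-treated Ncf1-/- NSCs, replicates 1 to 4, whose treatment the labels give as none, and Ncf1-/- NSCs given mouse recombinant Igfbp2, replicates 5 to 8. Igfbp2 was added 48 h after plating and RNA was taken 48 h later. For its dose the labels give 100 ng/ml, and the study's methods a lower concentration. The Ncf1-/- line had been backcrossed to C57BL/6J. WT cells given Igfbp2 were not analysed here. P-values measure the spread between the libraries of a group. They speak for separate animals only if each library came from its own pup, which was not tested.

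Libraries held 18201622 to 34086554 expected counts. Ncf1 itself was too low to check the genotype, with at most 7 counts in any library. WT replicate 11 stood apart from the other WT libraries: 8 markers of myelinating oligodendrocytes summed to 1677 CPM in it and to 5370 to 9586 CPM in the others, and 8 NSC markers to 8610 against 2836 to 4227 CPM. Vim (4569 against 626 to 1528 CPM) and Fabp7 (2178 against 988 to 1294 CPM) carried the NSC sum, while Sox2 (371 against 382 to 408 CPM) and Prom1 (14.6 against 18 to 48.1 CPM) were lower in it than in the other WT libraries. In both Ncf1-/- groups the myelin markers summed to 199 to 296 CPM and the NSC markers to 7971 to 8634 CPM, again mostly Vim and Fabp7. Of the 8 NSC markers, 5 were lower between WT and vehicle-treated Ncf1-/- cells (Sox2, Hes5, Prom1, Msi1 and Notch1), 2 were higher (Nes and Fabp7), and Vim did not pass (adjusted p = 0.0636). All 7 myelin markers that could be tested fell between WT and vehicle-treated Ncf1-/- cells. So did 7 of 8 astrocyte, 6 of 9 neuronal and 6 of 8 oligodendrocyte precursor markers, where 28.2% of all genes tested were called lower. Called higher were the precursor markers Olig1 (log2 fold change 0.87) and Olig2 (0.29) and the neuronal marker Gap43 (1.40). Aldh1l1, Rbfox3 and Snap25 did not pass. The mean of Rbfox3, a marker of neurons, was 1.94 to 2.41 CPM in the 3 groups, and microglial markers summed to at most 2.13 CPM. Mesenchymal and vascular markers summed to 2.14 to 8.49, 15.1 to 18.2 and 36.5 to 47.5 CPM in WT, vehicle-treated and Igfbp2-treated libraries. The part of these cell types in the results below was not tested, and in bulk RNA fewer cells of a type and less RNA per cell cannot be told apart.

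Genes of the Y chromosome also separated the Ncf1-/- groups, although the study paired a vehicle-treated with an Igfbp2-treated culture of each animal. The Y-linked genes Uty, Kdm5d, Ddx3y and Eif2s3y together summed to 105 to 116 CPM in the vehicle-treated libraries and to 7.79 to 9.18 CPM in the Igfbp2-treated ones, and Xist, the X-inactivation transcript, stood at 72.3 to 87.8 and 166 to 275 CPM. Every vehicle-treated library thus held the Y-linked transcripts together with Xist, where WT replicates 9 to 11 held the Y-linked ones at 107 to 118 CPM with Xist at 3.87 to 5.22 CPM. How cultures described as coming from single animals came to hold both was not settled here. Its part in the comparison of genotypes was not tested. Treatment and the sex of the cells cannot be told apart in any comparison with the Igfbp2-treated group. A sample sheet in the study's code lists WT replicate 12 as a library of another treatment. It differed from the other WT libraries in the same genes, with 6.46 against 107 to 118 CPM for the Y-linked sum and 291 against 3.87 to 5.22 CPM for Xist, and counts are given without it as well.

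Ionotropic glutamate receptors are tetrameric cation channels. AMPA receptors carry fast excitation, NMDA receptors need glycine or D-serine beside glutamate and admit calcium, and kainate and delta receptors modulate synapses. Metabotropic glutamate receptors couple to G proteins, group I to Gq and groups II and III to Gi/o. GABA-A receptors are pentameric chloride channels, and the GABA-B receptor is a G-protein-coupled dimer of Gabbr1 and Gabbr2 products. Outside synapses, oligodendrocyte precursors, astrocytes and NSCs express many of these receptors, and GABA and glutamate are known to influence proliferation and differentiation of progenitors.

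Of the 47 genes, 33 had enough counts to be tested. Between vehicle-treated Ncf1-/- and WT NSCs, 26 passed the test (edgeR quasi-likelihood test, Benjamini-Hochberg adjusted p under 0.05 over all 15706 genes tested), 6 higher and 20 lower in Ncf1-/- cells. Over all genes tested 57.2% passed, 28.9% higher and 28.2% lower, whereas 78.8% of the receptor genes did. Their median log2 fold change was -0.70, against 0.02 for all genes. Among the 20 lower, Grin2c, Grm7 and Grm8 had 10 or more counts in every library only in WT. These 3 passed the filter on counts through the group where they were high, so their calls are no separate support. Grin2d, among the 6 higher, had 10 or more counts in every library only in the Ncf1-/- groups. Without WT replicate 11 the count of receptor genes that passed was 28, and without WT replicate 12 it was 27. Shares of all genes without these libraries are not given, so whether receptor genes moved more than others cannot be read from these counts. A one-way analysis with Tukey's test on TPM (abundance scaled to transcript length and library size), the kind of test used in the study, called 14, of which 1 was higher and 13 lower. It tested 44 receptor genes (31.8% called) and 27880 genes in all, of which 4329 were called (15.5%), 2271 higher and 2058 lower. With library totals the calls of Gabra2, Gabra4 and Grin1 were lost, and on log2(TPM + 1) with limma those of Gria3, Grin2b, Grin2d, Grm3, Gabra2 and Gabra4.

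Between Igfbp2-treated and vehicle-treated Ncf1-/- NSCs, 9 receptor genes passed, 7 higher and 2 lower, or 27.3% against 25.0% of all genes, of which 14.2% were higher and 10.7% lower, with medians of 0.11 and 0.04. That balance depended on how libraries were scaled. TMM factors, used here, put the median of all genes at 0.04, library totals at -0.23 and TPM at -0.30, and the receptor genes called were then 3 higher and 9 lower with library totals, and 2 higher and 11 lower with limma on log2(TPM + 1). Calls over all 15706 genes went the same way, 648 higher and 5258 lower with library totals and 200 higher and 6154 lower with limma, or 37.6% and 40.5% of the genes against 36.4% and 39.4% of the receptor genes. On every one of these scales Gria2 and Gabrg1 were called lower with Igfbp2. With library totals calls including those of Grik4, Grik5 and Gabbr1 were lost, and on log2(TPM + 1) those of Gria1, Grik4 and Grik5 were lost and Gabbr1 changed sign. The count also rose from 9 to 15 of 33 (45.5%) without WT replicate 11, which is in neither group but shares the estimate of the spread. It was 18 of 30 tested (60.0%) when the 2 groups were fitted alone. Shares of all genes under these 2 settings are not given, so whether receptor genes moved more than others cannot be read from these counts. Between Igfbp2-treated Ncf1-/- and WT NSCs, 28 passed, 7 higher and 21 lower. This was 84.8%, against 62.4% of all genes, 31.6% higher and 30.8% lower, with medians of -0.76 and -0.01. Without WT replicate 12 the count was 27, and the share of all genes without that library is not given.

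The comparisons are not independent, since those of genotype and of treatment share the vehicle-treated libraries and both comparisons with WT share the 4 WT libraries, so each comparison's own values are given for the genes described. The values of the groups did not overlap for 22 receptor genes between vehicle-treated Ncf1-/- and WT libraries, 5 higher and 17 lower, where 51.2% of all genes did not overlap, 26.1% higher and 25.0% lower. Between treatments 18 did not overlap, 10 higher and 8 lower, where the shares of all genes were 34.1%, 19.3% and 14.7%. For Igfbp2-treated against WT libraries it was 24, 6 higher and 18 lower, where the shares were 54.3%, 27.8% and 26.6%.

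**Figure D1:**
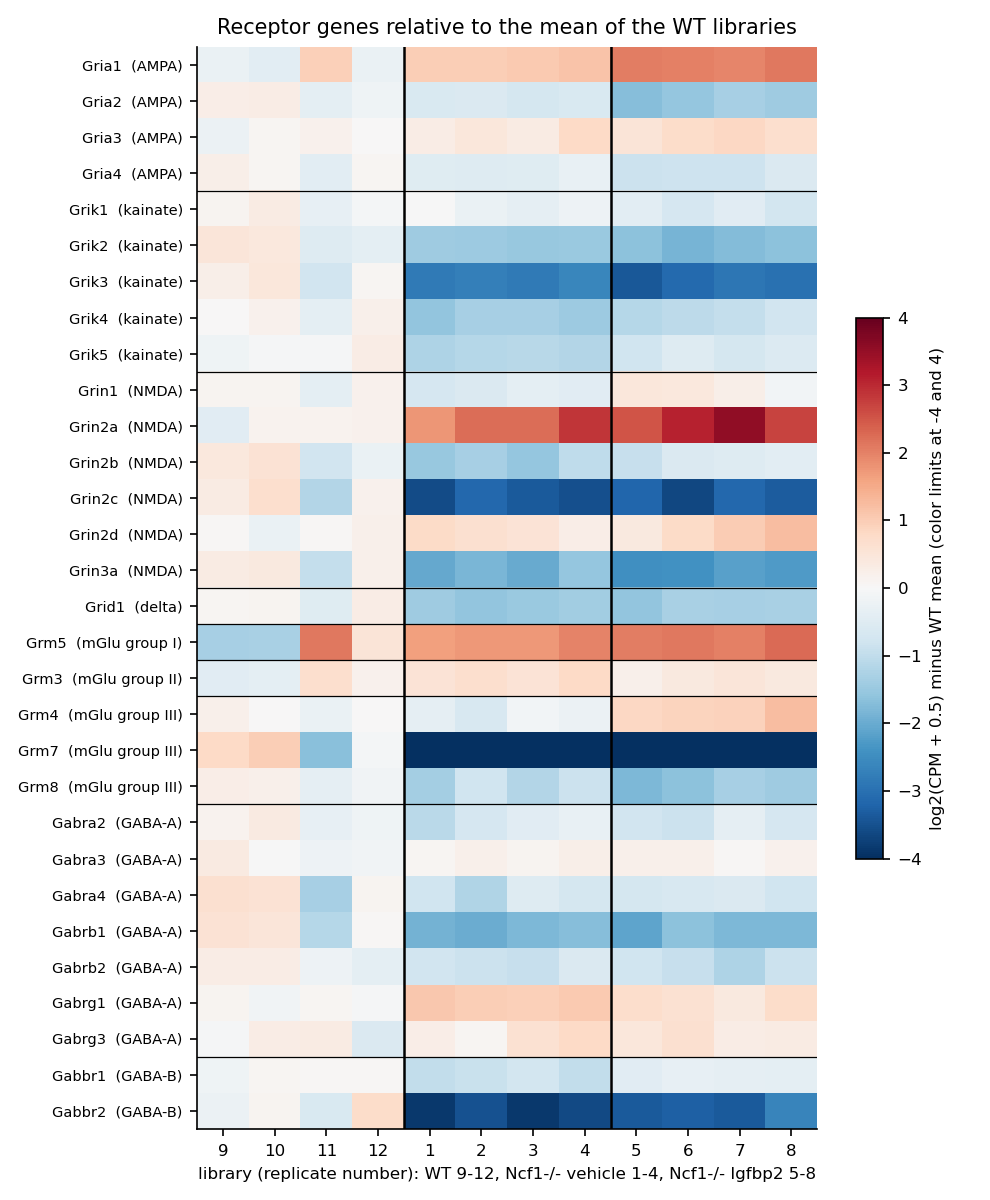
Expression of 30 of the receptor genes tested in each of the 12 libraries, as log2(CPM + 0.5) minus the mean of the 4 WT libraries, one row per gene and one column per library (WT 9 to 12, vehicle-treated Ncf1-/- 1 to 4, Igfbp2-treated Ncf1-/- 5 to 8). Most rows are blue in all 8 Ncf1-/- libraries, and WT replicate 11 departs from the other WT libraries toward them, as in Grm5, Grm7 and Gabra4.

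WT replicate 11 lay closest to the Ncf1-/- libraries for many of these genes. Of the 26 genes called between vehicle-treated Ncf1-/- and WT cells, it was the WT library nearest to the mean of the vehicle-treated group for 20 (76.9%), against 45.1% of all 8978 genes called in that comparison. In what follows, values are CPM (counts scaled to library size with TMM factors), in the order WT replicates 9, 10, 11 and 12, vehicle-treated replicates 1 to 4, and Igfbp2-treated replicates 5 to 8, and fold changes are on the log2 scale.

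**Figure D2:**
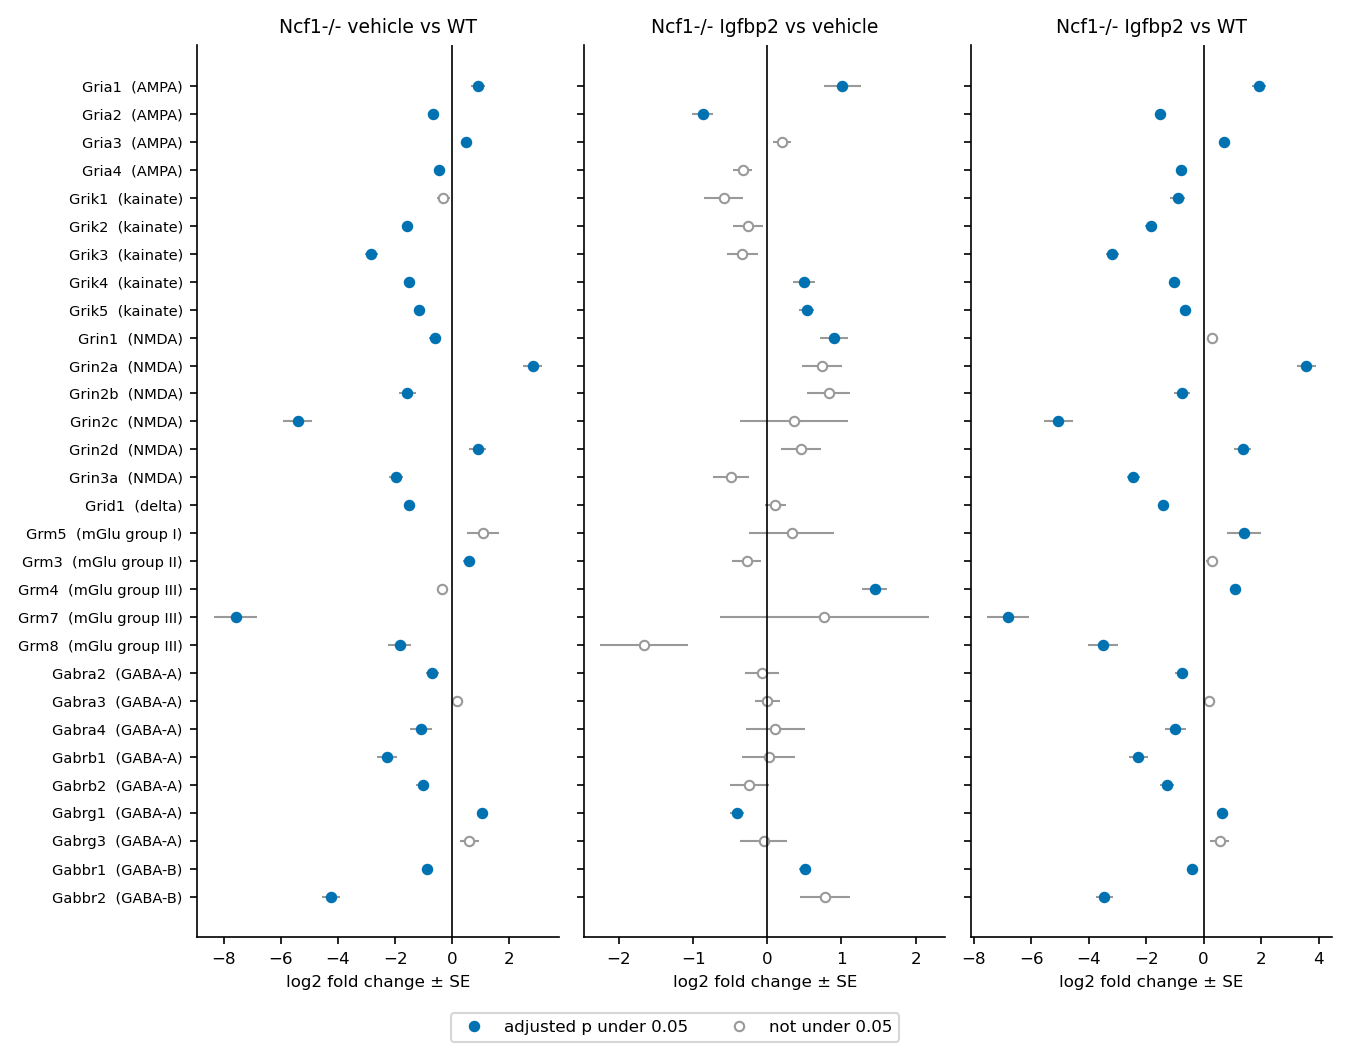
Log2 fold changes with standard errors (edgeR) of 30 of the receptor genes tested in the 3 comparisons, filled where the adjusted p was under 0.05, each panel with its own axis. In the left panel 19 filled points lie below 0 and 6 above it, and the middle panel has 8 filled points.

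The AMPA receptor genes were all called between genotypes, where 57.2% of all genes were, but in different directions. Gria1 and Gria3 were higher and Gria2 and Gria4 lower in Ncf1-/- cells. Their products, GluA1 to GluA4, assemble into tetramers, and GluA2 is the subunit whose Q/R site makes the channel nearly impermeable to calcium once its transcript is edited by Adar enzymes. The sequences around that codon are shown because Gria2, with Gria1 opposite to it, was called in every comparison. Each line gives 51 coding bases of the GENCODE M21 transcript (GRCm38), with the Q/R codon in capitals:
Gria1: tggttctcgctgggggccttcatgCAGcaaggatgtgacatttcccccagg
Gria2: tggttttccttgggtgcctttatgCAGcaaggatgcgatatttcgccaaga
Gria3: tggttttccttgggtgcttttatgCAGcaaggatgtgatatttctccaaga
Gria4: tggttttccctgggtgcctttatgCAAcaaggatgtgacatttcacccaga

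All 4 genes carry a glutamine codon at this position in the genome. In Gria2 it is codon 607, in exon 11 of 16 at chr3:80706911-80706913 on the minus strand, and in Gria1 codon 600, in exon 11 of 16 at chr11:57243094-57243096 on the plus strand. The windows of Gria1 and Gria2 are identical at 41 of 51 bases, and those of Gria2 and Gria3, whose codon 612 lies at chrX:41610265-41610267, at 48. In Gria4 it is codon 608, at chr9:4464137-4464139. Editing could not be read from counts per gene and was not measured.

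Gria1, at chr11:57011387-57330244, stood at 10.9, 9.77, 26.5 and 11.1 CPM in the WT libraries, 26.9, 26.7, 28 and 29.7 in the vehicle-treated Ncf1-/- libraries and 56.5, 55.7, 53 and 59.6 in the Igfbp2-treated ones. WT replicate 11 was the highest WT library and almost reached the vehicle-treated ones, and neither Ncf1-/- group overlapped with another group. The log2 fold change was 0.91 (SE 0.25, adjusted p = 0.00694) between genotypes, 1.01 (SE 0.25, adjusted p = 0.0114) with Igfbp2, and 1.93 (SE 0.25, adjusted p = 2.77e-05) between Igfbp2-treated and WT cells. Without WT replicate 11 the first of these was 1.40 (adjusted p = 1.33e-08). Gria2, at chr3:80681450-80802835, stood at 134, 136, 85.4 and 99.2 CPM in the WT libraries, 73.6, 74.1, 67.9 and 72.4 in the vehicle-treated Ncf1-/- libraries and 34.2, 38.2, 44.2 and 41.4 in the Igfbp2-treated ones. Every WT library was above every vehicle-treated one, and these in turn were above the Igfbp2-treated ones. The log2 fold changes were -0.66 (SE 0.14, adjusted p = 0.00116), -0.87 (SE 0.14, adjusted p = 0.00169) and -1.52 (SE 0.14, adjusted p = 1.58e-06) in the same order.

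Within a library the ratio of the 2 genes does not depend on the scaling of libraries. The ratio of Gria1 to Gria2, in TPM so that transcript length is accounted for, was 0.0543, 0.0496, 0.219 and 0.0955 in the WT libraries, 0.279, 0.272, 0.292 and 0.326 in the vehicle-treated ones and 1.06, 0.92, 0.83 and 0.962 in the Igfbp2-treated ones. The groups did not overlap. As a share of the TPM of the family, Gria2 took 63.6% ± 5.19 (SD, n = 4) in WT, 49.4% ± 2.81 in vehicle-treated and 30.5% ± 1.3 in Igfbp2-treated NSCs, and Gria1 6.36% ± 4.27, 14.4% ± 0.391 and 28.7% ± 1.83.

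Gria3 stood at 21.6, 26.7, 28.5 and 25.8 CPM in the WT libraries, 31.3, 35.2, 31.9 and 45.1 in the vehicle-treated Ncf1-/- libraries and 36.8, 42.4, 45.2 and 40.8 in the Igfbp2-treated ones. This X-linked gene was higher in Ncf1-/- cells by 0.48 (SE 0.12, adjusted p = 0.00456), with no overlap with WT, and its values in the 2 Ncf1-/- groups overlapped (0.20, SE 0.12, adjusted p = 0.237). Left out, vehicle-treated replicate 4, its highest library there, changed the treatment value to 0.35 (adjusted p = 0.0264). Over all alternatives that value ranged from -0.16 to 0.35. Against WT the Igfbp2-treated libraries were higher by 0.69 (SE 0.12, adjusted p = 0.00035). On log2(TPM + 1) the calls against WT were lost. Gria4 stood at 43.1, 38.7, 27.3 and 38.6 CPM in the WT libraries, 25.9, 25.2, 25.9 and 29.5 in the vehicle-treated Ncf1-/- libraries and 19.9, 20.1, 20.4 and 24.1 in the Igfbp2-treated ones. Its fold change was -0.47 (SE 0.12, adjusted p = 0.00573) between genotypes, where WT replicate 11 lay inside the vehicle-treated range, -0.33 (SE 0.13, adjusted p = 0.069) with Igfbp2 and -0.80 (SE 0.13, adjusted p = 0.000116) against WT. Without WT replicate 11 the treatment difference had an adjusted p of 0.0116.

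**Figure D3:**
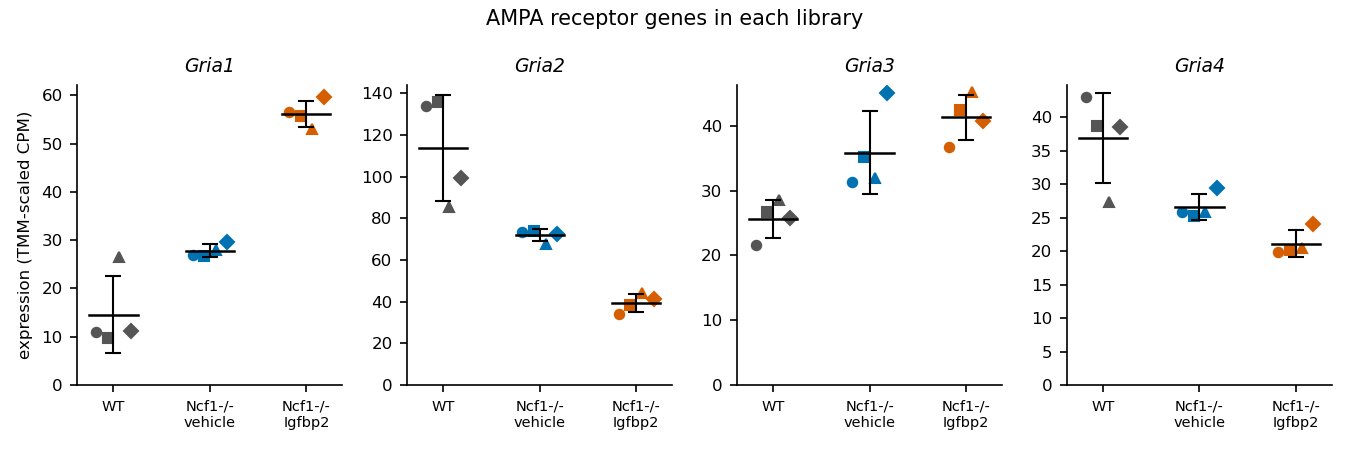
Expression of the AMPA receptor genes Gria1 to Gria4 in CPM (linear axis from 0). Symbols are the 4 libraries of a group in order of replicate number (circle, square, triangle, diamond), the bars give mean and SD, and Gria1 rises and Gria2 falls from WT over vehicle-treated to Igfbp2-treated NSCs.

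Kainate receptor genes were called lower in vehicle-treated Ncf1-/- NSCs in 4 of 5 cases, where 28.2% of all genes were. They summed to 337 to 523 CPM in WT, 127 to 136 in vehicle-treated and 148 to 175 CPM in Igfbp2-treated libraries. Grik1, Grik2 and Grik3 encode the subunits that form channels alone, and Grik4 and Grik5 the high-affinity subunits that need one of those as partner. Grik3, at chr4:125490700-125714173 on the plus strand, stood at 229.9, 269.8, 114 and 208 CPM in the WT libraries, 27.3, 29.1, 27.3 and 31.7 in the vehicle-treated Ncf1-/- libraries and 18.1, 22.5, 26.1 and 24.2 in the Igfbp2-treated ones. The lowest WT value, that of replicate 11, was still above all Ncf1-/- values. It fell by 2.83 on the log2 scale between genotypes (SE 0.22, adjusted p = 4e-07), and by 3.17 between WT and Igfbp2-treated cells (SE 0.22, adjusted p = 1.77e-07). With Igfbp2 its fold change was -0.34 (SE 0.21, adjusted p = 0.242), and 0.0418 was the adjusted p without WT replicate 11.

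The 250 bases before the start of Grik3 (RefSeq, GRCm38.p6, chr4:125490446-125490695, plus strand) are shown with GC boxes in capitals, and were chosen after the values were seen because Grik3 had the largest fall of the kainate genes:
Grik3: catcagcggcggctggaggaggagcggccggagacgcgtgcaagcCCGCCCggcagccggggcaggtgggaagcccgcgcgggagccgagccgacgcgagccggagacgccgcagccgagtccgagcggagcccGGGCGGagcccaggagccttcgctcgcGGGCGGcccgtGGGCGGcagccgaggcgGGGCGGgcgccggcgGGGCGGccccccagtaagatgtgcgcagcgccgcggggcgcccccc
This stretch is 82.0% G or C, against a median of 52.4% over all 32851 RefSeq promoters of the same length, and holds 6 GC boxes (GGGCGG or its reverse complement CCGCCC). RefSeq promoters were at hand for 32 of the 47 receptor genes, some with several starts. A GC box was present for 17 of the 32 genes, and in 46.2% of their 39 promoters against 32.7% of all promoters. Of the 20 lower and 6 higher genes between genotypes, 16 and 3 had a promoter at hand, and a GC box was present for 11 and 1 of these. The E-box CAGCTG was found in 1 of the 39 promoters (2.56%, against 13.0% of all), CCAAT or ATTGG in 41.0% (33.8%), TATAAA or TTTATA in 10.3% (12.4%), and AACAAT or ATTGTT in 7.69% (9.42%).

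Grik2 stood at 52.5, 49.5, 25.8 and 28.4 CPM in the WT libraries, 13.5, 13.2, 12.8 and 13.1 in the vehicle-treated Ncf1-/- libraries and 11.6, 9.8, 10.8 and 11.7 in the Igfbp2-treated ones. All WT libraries exceeded all Ncf1-/- libraries, with fold changes of -1.57 (SE 0.20, adjusted p = 2.18e-05) for vehicle-treated and -1.83 (SE 0.20, adjusted p = 7.12e-06) for Igfbp2-treated cells. Between treatments the value was -0.26 (SE 0.20, adjusted p = 0.37). Grik5 stood at 171, 186, 185 and 236 CPM in the WT libraries, 81, 87.2, 88.7 and 85.9 in the vehicle-treated Ncf1-/- libraries and 112, 134, 119 and 131 in the Igfbp2-treated ones. Grik5 fell between genotypes and was higher with Igfbp2, without reaching WT. The fold changes were -1.18 (SE 0.10, adjusted p = 9.47e-07), 0.53 (SE 0.10, adjusted p = 0.0035) and -0.65 (SE 0.10, adjusted p = 9.67e-05) for genotype, treatment and Igfbp2-treated against WT. The 3 groups did not overlap.

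Grik4 stood at 14.2, 15.7, 10.6 and 16 CPM in the WT libraries, 4.31, 5.27, 5.25 and 4.78 in the vehicle-treated Ncf1-/- libraries and 6.04, 6.55, 6.89 and 8.05 in the Igfbp2-treated ones. This gene had the same order as Grik5, with -1.52 (SE 0.15, adjusted p = 2.32e-06) for genotype, 0.49 (SE 0.15, adjusted p = 0.0309) for treatment and -1.03 (SE 0.14, adjusted p = 4.87e-05) for Igfbp2-treated against WT. With culture pairs as a block the adjusted p for treatment was 0.0608, and the call was lost when any of Igfbp2-treated replicates 6, 7 or 8 (0.0794, 0.0902 and 0.122), vehicle-treated replicates 1 to 4 (0.0882, 0.0542, 0.0757 and 0.0526) or WT replicate 10 (0.0505) was left out. Grik1 stood at 1.27, 1.57, 0.803 and 1.06 CPM in the WT libraries, 1.13, 0.871, 0.795 and 0.933 in the vehicle-treated Ncf1-/- libraries and 0.72, 0.541, 0.717 and 0.491 in the Igfbp2-treated ones. With 9 to 29 counts per library it was called only between Igfbp2-treated and WT cells (-0.90, SE 0.26, adjusted p = 0.00893), and stood at -0.31 (SE 0.24, adjusted p = 0.297) for genotype and -0.59 (SE 0.26, adjusted p = 0.117) for treatment. As shares of the family's TPM, Grik3 took 25% ± 5.82 in WT, 10.1% ± 0.671 in vehicle-treated and 6.2% ± 0.794 in Igfbp2-treated cells, while Grik5 took 58.4% ± 9.02, 72.5% ± 1.28 and 81.1% ± 1.62 (SD, n = 4 each).

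Grid1 encodes a delta receptor subunit, which binds cerebellins and glycine or D-serine rather than glutamate. Grid1 stood at 60, 61.5, 41.2 and 71.3 CPM in the WT libraries, 20.9, 18.7, 20.4 and 21.5 in the vehicle-treated Ncf1-/- libraries and 18.7, 23.2, 22.6 and 23.1 in the Igfbp2-treated ones. All WT libraries lay above all Ncf1-/- libraries. Grid1 changed by -1.52 (SE 0.14, adjusted p = 1.69e-06) between genotypes and by -1.41 (SE 0.14, adjusted p = 2.9e-06) between WT and Igfbp2-treated cells, and was not called with Igfbp2, at 0.11 (SE 0.14, adjusted p = 0.608).

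All 6 NMDA receptor genes that were tested were called between genotypes, where 57.2% of all genes were. Grin2a and Grin2d were higher and Grin1, Grin2b, Grin2c and Grin3a lower in Ncf1-/- NSCs. Grin1 encodes the obligatory GluN1 subunit, the Grin2 genes the glutamate-binding subunits, and Grin3a a glycine-binding subunit that lowers calcium permeability. Grin3a stood at 105, 111, 43.5 and 97.2 CPM in the WT libraries, 19.7, 23.5, 20.3 and 28.2 in the vehicle-treated Ncf1-/- libraries and 15, 15.1, 18.4 and 16.9 in the Igfbp2-treated ones. It was the gene with the highest share of the family, 77.5% ± 1.2 of its TPM in WT, 57.4% ± 5.28 in vehicle-treated and 37.3% ± 3.31 in Igfbp2-treated cells (SD, n = 4). WT and Ncf1-/- libraries did not overlap (-1.96, SE 0.24, adjusted p = 1.47e-05 for genotype and -2.44, SE 0.24, adjusted p = 2.93e-06 for Igfbp2-treated against WT). For treatment it stood at -0.49 (SE 0.24, adjusted p = 0.149), with an adjusted p of 0.00824 without WT replicate 11.

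Grin1 stood at 4.14, 4.1, 2.78 and 4.29 CPM in the WT libraries, 2.18, 2.37, 2.74 and 2.61 in the vehicle-treated Ncf1-/- libraries and 5.32, 5.29, 4.5 and 3.49 in the Igfbp2-treated ones. All vehicle-treated libraries were below all WT libraries, with replicate 11 nearest, and below all Igfbp2-treated ones. Grin1 changed by -0.62 (SE 0.19, adjusted p = 0.0122) between genotypes and by 0.90 (SE 0.19, adjusted p = 0.00523) with Igfbp2, and Igfbp2-treated and WT cells overlapped (0.29, SE 0.18, adjusted p = 0.186). Grin1os, on the opposite strand, covers 13.5% of the exonic bases of Grin1. The strand setting was not given, so reads from that part cannot be assigned to Grin1 with certainty. Grin2a stood at 0.5, 1.03, 1.03 and 1.06 CPM in the WT libraries, 4.18, 6, 6 and 9.44 in the vehicle-treated Ncf1-/- libraries and 7.48, 11.3, 15.5 and 8.59 in the Igfbp2-treated ones. Every Ncf1-/- library lay above every WT library, and the fold change between genotypes was 2.82 (SE 0.33, adjusted p = 1.04e-05). With Igfbp2 the groups overlapped (0.74, SE 0.27, adjusted p = 0.0632). The adjusted p was 0.0196 without vehicle-treated replicate 4, 0.0489 without WT replicate 11 and 0.0498 without WT replicate 9. Over all alternatives the treatment value ranged from -0.02 to 1.01, and mean TPM was 0.735 in vehicle-treated and 0.73 in Igfbp2-treated cells. Igfbp2-treated cells exceeded WT by 3.56 (SE 0.33, adjusted p = 1.55e-06).

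Grin2b stood at 10.8, 12.1, 4.45 and 6.46 CPM in the WT libraries, 2.44, 2.81, 2.34 and 3.66 in the vehicle-treated Ncf1-/- libraries and 3.93, 5.05, 5.31 and 5.79 in the Igfbp2-treated ones. Vehicle-treated libraries were the lowest of the 3 groups, without overlap (-1.57, SE 0.29, adjusted p = 0.000397 against WT). For treatment the value was 0.83 (SE 0.29, adjusted p = 0.0517), just outside the threshold. It was inside without vehicle-treated replicate 4 (0.0405) or WT replicate 9 (0.0481), 10 (0.0495) or 11 (0.0122). Over all alternatives this value ranged from 0.15 to 1.01. Igfbp2-treated cells stood at -0.74 (SE 0.28, adjusted p = 0.0329) against WT, a call lost with culture pairs as a block (adjusted p = 0.0521) and without Igfbp2-treated replicate 5 (0.0733) or WT replicates 9 (0.0967) or 10 (0.0883). On the TPM scale that last value was 0.01. The ratio of Grin2a to Grin2b in TPM, which does not depend on library scaling, was 0.133 to 0.316 in WT, 1.41 to 2.26 in vehicle-treated and 0.9 to 1.79 in Igfbp2-treated libraries.

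Grin2c, at chr11:115249169-115267243, stood at 8.32, 10.5, 2.61 and 7.35 CPM in the WT libraries, 0.0871, 0.29, 0.177 and 0.112 in the vehicle-treated Ncf1-/- libraries and 0.277, 0.0601, 0.287 and 0.196 in the Igfbp2-treated ones. In counts this was 91 to 195 in WT libraries and 1 to 6 in Ncf1-/- libraries. The fitted fold changes were -5.41 (SE 0.50, adjusted p = 1.7e-06) and -5.05 (SE 0.50, adjusted p = 2.64e-06) against WT, and 0.36 (SE 0.73, adjusted p = 0.745) between treatments, where both groups were near the limit of detection. WT replicate 11, at 2.61 CPM, was the lowest WT library. The 250 bases before its start (RefSeq, GRCm38.p6, chr11:115267244-115267493, minus strand) hold 3 GC boxes, in capitals, of which the last overlaps the one before it:
Grin2c: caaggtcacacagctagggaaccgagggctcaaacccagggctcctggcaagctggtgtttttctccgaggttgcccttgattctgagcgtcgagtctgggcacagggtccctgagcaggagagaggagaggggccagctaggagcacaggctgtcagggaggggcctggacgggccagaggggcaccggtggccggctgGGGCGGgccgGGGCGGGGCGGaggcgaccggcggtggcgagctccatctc
They are 68.8% G or C and hold none of the other motifs searched.

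Grin2d stood at 0.591, 0.378, 0.602 and 0.724 CPM in the WT libraries, 1.31, 1.16, 1.06 and 0.783 in the vehicle-treated Ncf1-/- libraries and 0.886, 1.32, 1.67 and 2.01 in the Igfbp2-treated ones. It had 7 to 41 counts per library. Vehicle-treated libraries were above WT (0.89, SE 0.30, adjusted p = 0.0203), a call lost without vehicle-treated replicate 1 (adjusted p = 0.0588) or WT replicate 10 (0.0703). Igfbp2-treated libraries were above WT too (1.36, SE 0.29, adjusted p = 0.00135), and overlapped with vehicle-treated ones (0.46, SE 0.27, adjusted p = 0.228). On log2(TPM + 1) both calls were lost. An antisense gene covers 9.7% of its exonic bases.

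**Figure D4:**
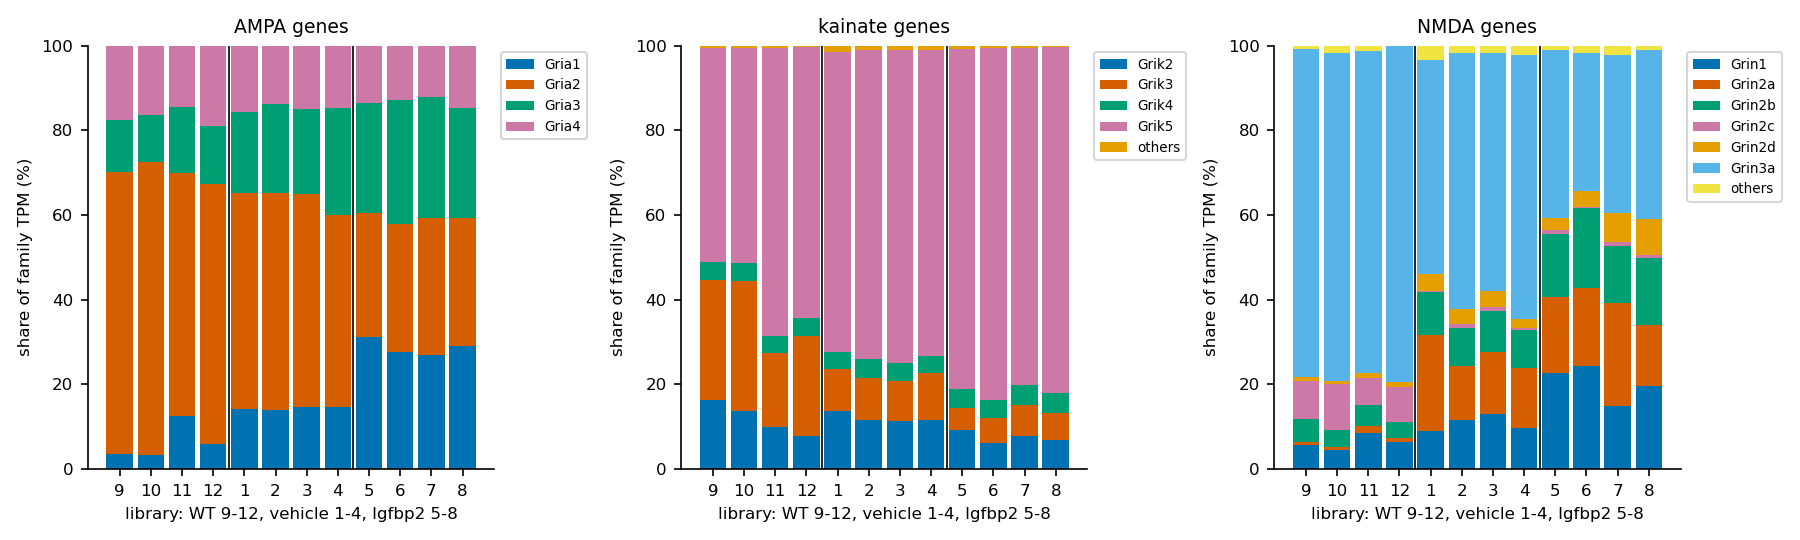
Share of each gene in the summed TPM of its family (percent, stacked to 100) in each library, for AMPA, kainate and NMDA receptor genes, with genes under 4% in every library pooled as others. The share of Gria2 falls from 57.4 to 69% in WT to 29.3 to 32.4% in Igfbp2-treated libraries.

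Metabotropic glutamate receptor genes were called between genotypes in 3 of 6 cases tested (50.0%, against 57.2% of all genes). Grm3 was higher and Grm7 and Grm8 were lower. Grm5, the group I receptor coupled to Gq, stood at 24.4, 24.9, 267 and 88 CPM in the WT libraries, 194, 206, 205 and 245 in the vehicle-treated Ncf1-/- libraries and 255, 270.4, 249 and 298 in the Igfbp2-treated ones. WT replicates 9 and 10 were low, replicate 12 lay between, and replicate 11 lay among the Ncf1-/- libraries. Between genotypes the fold change of 1.07 (SE 0.57, adjusted p = 0.129) did not pass, and it was 2.22 (adjusted p = 0.000147) without WT replicate 11. Between Igfbp2-treated and WT cells it was 1.40 (SE 0.58, adjusted p = 0.0494), with 2.56 (adjusted p = 4.87e-05) without that library. This call was lost with culture pairs as a block (adjusted p = 0.102) and whenever any library other than WT replicate 11 was left out, at adjusted p of 0.0612 to 0.103. For treatment it stood at 0.33 (SE 0.57, adjusted p = 0.692).

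Grm3, a group II receptor, stood at 16.3, 17.1, 36.3 and 25.4 CPM in the WT libraries, 33.3, 36.2, 33.5 and 39.6 in the vehicle-treated Ncf1-/- libraries and 26, 29.5, 31.9 and 29.8 in the Igfbp2-treated ones. WT replicate 11 again lay inside the Ncf1-/- range. Grm3 rose by 0.58 (SE 0.20, adjusted p = 0.0269) between genotypes, with 0.87 (adjusted p = 0.000128) without that library. With culture pairs as a block the adjusted p was 0.0612, and the call was lost without vehicle-treated replicate 2 (0.0508) or 4 (0.0834) or WT replicate 9 (0.0725) or 10 (0.0795). With Igfbp2 it stood at -0.28 (SE 0.20, adjusted p = 0.32) and against WT at 0.29 (SE 0.20, adjusted p = 0.227), the latter 0.59 (adjusted p = 0.00255) without WT replicate 11.

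The group III receptors, which act mostly on presynaptic terminals, diverged. Grm7, at chr6:110645581-111567230, stood at 21.8, 24.9, 3.59 and 11.7 CPM in the WT libraries, 0.0436, 0.0484, 0.132 and 0.0746 in the vehicle-treated Ncf1-/- libraries and 0, 0.24, 0.0478 and 0.245 in the Igfbp2-treated ones. The 4 vehicle-treated libraries held 7 counts together and the 4 WT libraries 1277, a ratio of 182 in counts (95% exact interval 88 to 453, counting error only). WT replicate 11 was the lowest WT library. The fitted fold changes were -7.58 (SE 0.76, adjusted p = 3.01e-06) and -6.81 (SE 0.72, adjusted p = 4.8e-06) against WT, and 0.77 (SE 1.41, adjusted p = 0.717) for treatment, with 0 to 5 counts per library. Grm8 stood at 1.59, 1.51, 0.86 and 1.06 CPM in the WT libraries, 0.174, 0.484, 0.265 and 0.448 in the vehicle-treated Ncf1-/- libraries and 0, 0.0601, 0.191 and 0.147 in the Igfbp2-treated ones. All WT libraries were above all Ncf1-/- ones, with -1.84 (SE 0.40, adjusted p = 0.0016) for genotype and -3.50 (SE 0.51, adjusted p = 6.14e-05) for Igfbp2-treated against WT. At 0 to 12 counts per Ncf1-/- library, the treatment value of -1.66 (SE 0.59, adjusted p = 0.055) crossed the threshold without Igfbp2-treated replicate 7 (adjusted p = 0.0488) or WT replicate 11 (0.0439).

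Grm4, also of group III, stood at 3.96, 3.45, 2.75 and 3.4 CPM in the WT libraries, 2.53, 1.98, 3.09 and 2.8 in the vehicle-treated Ncf1-/- libraries and 6.42, 6.67, 6.84 and 8.59 in the Igfbp2-treated ones. All 4 Igfbp2-treated libraries were above the other 8. Its rise with Igfbp2 was 1.45 (SE 0.17, adjusted p = 0.000496), and it exceeded WT by 1.08 (SE 0.17, adjusted p = 0.000106), while vehicle-treated and WT cells overlapped (-0.37, SE 0.17, adjusted p = 0.0822). That last value passed without vehicle-treated replicate 3 (adjusted p = 0.05 when rounded) or WT replicate 11 (0.0338). With Tukey's test on TPM both calls of Igfbp2-treated cells were lost. The values were 0.33 (adjusted p = 0.0709) for treatment and 0.29 (adjusted p = 0.0613) against WT. This was the only 1 of 19 alternatives in which either call was lost. In TPM, Grm7 made up 75.9% ± 14.4 of the group III genes in WT and Grm4 16.6% ± 10.6, while in vehicle-treated cells Grm4 made up 73.4% ± 5.43 and in Igfbp2-treated cells 93.8% ± 4.27 (SD, n = 4).

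GABA-A receptor genes were tested in 8 of 16 cases, not counting the rho genes. Between genotypes 5 were called (62.5%, against 57.2% of all genes), Gabrg1 higher and Gabra2, Gabra4, Gabrb1 and Gabrb2 lower. The 16 genes summed to 69 to 82.8 CPM in WT, 83.9 to 94.8 in vehicle-treated and 83.2 to 92.2 CPM in Igfbp2-treated libraries. Gabrg1, encoding a gamma subunit, at chr5:70751047-70842617, stood at 22.3, 18.9, 21.7 and 20.3 CPM in the WT libraries, 44.5, 42, 40.4 and 43.1 in the vehicle-treated Ncf1-/- libraries and 34.1, 31.6, 27.1 and 35.2 in the Igfbp2-treated ones. No group overlapped with another. Gabrg1 rose by 1.03 (SE 0.09, adjusted p = 1.08e-06) between genotypes and changed by -0.41 (SE 0.09, adjusted p = 0.00661) with Igfbp2, staying above WT by 0.62 (SE 0.09, adjusted p = 6.23e-05), a call lost on log2(TPM + 1). WT replicate 11 did not stand apart for this gene.

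Its neighbours on chromosome 5 went the other way. Gabra2, at chr5:70957597-71095849, adjoins Gabrg1, and Gabra4 and Gabrb1 adjoin each other at chr5:71569749-72149037, with opposite strands and overlapping exons. The 250 bases before the starts of Gabrg1 (chr5:70842618-70842867) and Gabra2 (chr5:71095850-71096099), both on the minus strand of GRCm38.p6 as given by RefSeq, are set beside each other because these neighbours moved in opposite directions. GC boxes are in capitals:
Gabrg1: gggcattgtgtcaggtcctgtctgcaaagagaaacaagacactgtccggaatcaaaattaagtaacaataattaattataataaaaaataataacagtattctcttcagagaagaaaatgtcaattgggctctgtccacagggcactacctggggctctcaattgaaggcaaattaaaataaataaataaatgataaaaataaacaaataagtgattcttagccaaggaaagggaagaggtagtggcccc
Gabra2: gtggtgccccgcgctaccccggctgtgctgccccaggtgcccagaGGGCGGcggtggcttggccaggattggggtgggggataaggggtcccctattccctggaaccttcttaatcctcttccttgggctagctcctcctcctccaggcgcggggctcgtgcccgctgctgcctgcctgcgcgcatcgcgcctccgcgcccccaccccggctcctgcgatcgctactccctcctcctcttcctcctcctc
The stretch before Gabrg1 is 35.6% G or C and has no GC box, 1 CCAAT match and 1 AACAAT match, and that before Gabra2 is 70.0% G or C with 1 GC box and 1 CCAAT match.

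Gabra2 stood at 4.96, 5.83, 3.5 and 3.95 CPM in the WT libraries, 1.87, 2.61, 3.13 and 3.54 in the vehicle-treated Ncf1-/- libraries and 2.44, 2.22, 3.35 and 2.65 in the Igfbp2-treated ones. Vehicle-treated replicate 4 reached just above the lowest WT library. Gabra2 fell between genotypes (-0.70, SE 0.22, adjusted p = 0.0169), though not without vehicle-treated replicate 1 (-0.54, adjusted p = 0.0508), and was lower in Igfbp2-treated than in WT cells (-0.76, SE 0.23, adjusted p = 0.0103). Gabra4 stood at 6.41, 6.21, 1.29 and 4.29 CPM in the WT libraries, 2.05, 1.45, 2.65 and 2.24 in the vehicle-treated Ncf1-/- libraries and 2.22, 2.34, 2.49 and 2.06 in the Igfbp2-treated ones. WT replicate 11, at 1.29 CPM, was below all other libraries. The calls of -1.09 (SE 0.38, adjusted p = 0.0256) between genotypes and -0.98 (SE 0.38, adjusted p = 0.0404) between Igfbp2-treated and WT cells were lost with culture pairs as a block (adjusted p = 0.0537 and 0.0782). The genotype call was also lost without vehicle-treated replicate 1 (0.0547) or 2 (0.0722) or WT replicate 9 (0.0808) or 10 (0.0716), and the other call without any of 7 libraries, at 0.0508 to 0.122. For treatment the values were -0.07 (SE 0.23, adjusted p = 0.858) for Gabra2 and 0.11 (SE 0.40, adjusted p = 0.854) for Gabra4.

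Gabrb1 stood at 9.91, 9.34, 2.7 and 6.74 CPM in the WT libraries, 1.39, 1.26, 1.5 and 1.64 in the vehicle-treated Ncf1-/- libraries and 1.11, 1.74, 1.53 and 1.52 in the Igfbp2-treated ones. WT libraries were all above Ncf1-/- libraries. The beta subunit gene fell by 2.29 on the log2 scale (SE 0.34, adjusted p = 7.37e-05) in vehicle-treated and by 2.27 (SE 0.34, adjusted p = 8.6e-05) in Igfbp2-treated cells, and was at 0.02 (SE 0.36, adjusted p = 0.973) for treatment. Gabrb2 stood at 3, 3.02, 1.98 and 1.67 CPM in the WT libraries, 1.18, 1.06, 1.02 and 1.42 in the vehicle-treated Ncf1-/- libraries and 1.16, 1.02, 0.717 and 1.08 in the Igfbp2-treated ones. Its WT libraries, too, exceeded the others, with -1.04 (SE 0.24, adjusted p = 0.0023) for genotype, -1.28 (SE 0.25, adjusted p = 0.000615) for Igfbp2-treated against WT and -0.24 (SE 0.26, adjusted p = 0.519) for treatment.

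As a share of the TPM of the GABA-A receptor genes, Gabrg1 took 32.5% ± 3.02 in WT, 54.4% ± 1.95 in vehicle-treated and 41.5% ± 4.97 in Igfbp2-treated cells (SD, n = 4). Gabra3 and Gabrg3 passed in no comparison. The X-linked Gabra3 averaged 2.26 CPM in WT, 2.56 in vehicle-treated and 2.56 in Igfbp2-treated cells, with fold changes of 0.18 (SE 0.17, adjusted p = 0.378) for genotype and -0.00 (SE 0.17, adjusted p = 0.993) for treatment, and Gabrg3 averaged 0.794, 1.23 and 1.2 CPM, with 0.60 (SE 0.32, adjusted p = 0.128) and -0.05 (SE 0.32, adjusted p = 0.918).

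Both GABA-B receptor genes were lower in Ncf1-/- NSCs, by very different amounts, where 28.2% of all genes were called lower between genotypes. Gabbr1 encodes the subunit that binds GABA and Gabbr2 the subunit that carries it to the surface and couples to the G protein. Gabbr1, at chr17:37045966-37075067, stood at 119, 141, 137 and 139.6 CPM in the WT libraries, 67.6, 72.6, 80.8 and 66.8 in the vehicle-treated Ncf1-/- libraries and 97.5, 106, 104 and 101 in the Igfbp2-treated ones. The 3 groups did not overlap, and Igfbp2-treated libraries lay between the others. The fold changes were -0.90 (SE 0.08, adjusted p = 1.75e-06) for genotype, 0.51 (SE 0.08, adjusted p = 0.00187) for treatment and -0.39 (SE 0.08, adjusted p = 0.00114) for Igfbp2-treated against WT. On the TPM scale the treatment value was -0.11. Gabbr2, at chr4:46662305-46991873, stood at 18.7, 24, 14.3 and 37 CPM in the WT libraries, 1.05, 1.5, 1.06 and 1.34 in the vehicle-treated Ncf1-/- libraries and 1.72, 1.86, 1.72 and 3.14 in the Igfbp2-treated ones. The lowest WT library, replicate 11, was far above every Ncf1-/- library. Gabbr2 fell by 4.24 on the log2 scale in vehicle-treated cells (SE 0.31, adjusted p = 3.04e-07) and by 3.46 in Igfbp2-treated cells (SE 0.30, adjusted p = 9.5e-07), and stood at 0.78 (SE 0.34, adjusted p = 0.111) for treatment. The ratio of Gabbr2 to Gabbr1 in TPM was 0.0836, 0.0944, 0.0575 and 0.146 in WT, 0.0139, 0.0196, 0.00671 and 0.00992 in vehicle-treated and 0.0142, 0.00934, 0.0101 and 0.0162 in Igfbp2-treated libraries.

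**Figure D5:**
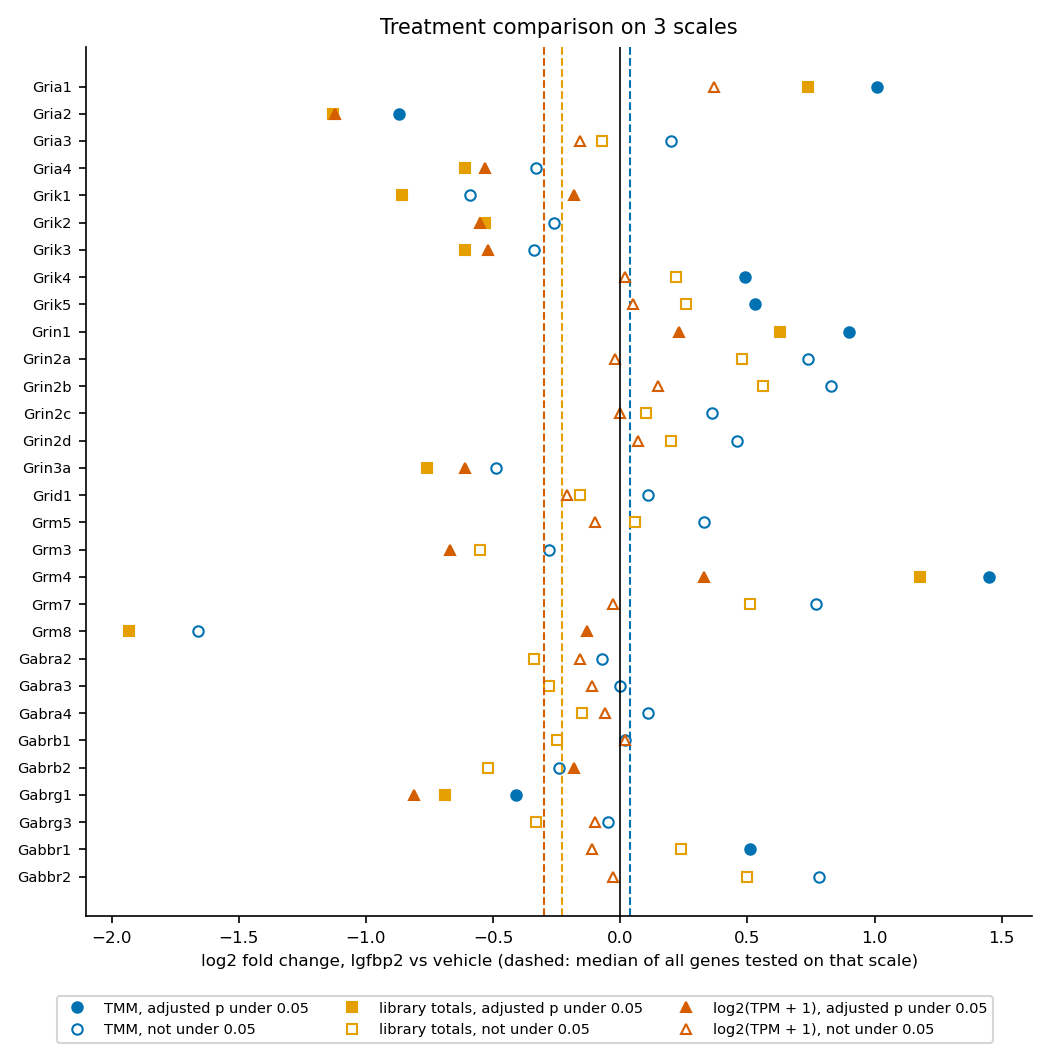
Log2 fold change of 30 receptor genes between Igfbp2-treated and vehicle-treated Ncf1-/- NSCs on 3 scales (edgeR with TMM, edgeR with library totals, limma on log2(TPM + 1)), filled where the adjusted p was under 0.05. Dashed lines mark the median of all genes on each scale, 0.04, -0.23 and -0.30, and most points shift left with them.

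Many receptor genes of mature neurons were hardly seen in these cells. The 14 genes that were not tested included Gabra6, Gabrp and Gabrr3, which were at 0 in all 12 libraries, allowing at most 3 counts per library. Among the rest, the highest count in any library was 20 for Gabra5, 15 for Grin3b, 10 for Gabrq, 9 for Gabre, 8 for Gabrr2, 4 for Gabrr1, 2 for Grm2 and 1 for Grm6 and Gabrd. The gene Tmem259, on the opposite strand, covers 32.1% of the exonic bases of Grin3b, so that its counts cannot be assigned to it with certainty. In all, 3 of the 47 genes (Grin2c, Grm7 and Grm8) had 10 or more counts in every WT library but not in every library of either Ncf1-/- group, and 2 (Grin2d and Gabrg3) the reverse.

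Genes that act with these receptors were counted in the same way in 3 lists. Of 24 tested genes for auxiliary subunits and extracellular partners, 12 were lower and 7 higher between vehicle-treated Ncf1-/- and WT cells (79.2%, against 57.2% of all genes, median log2 fold change -0.63), and 6 were higher and 1 lower with Igfbp2 (29.2%, against 25.0%). The 3 with the largest changes were Cbln2, Shisa7 and Shisa9. Cbln2, a cerebellin that binds delta receptors, stood at 37.3, 29.4, 16.7 and 41.8 CPM in WT and 0.261 to 0.618 CPM in vehicle-treated libraries. Its log2 fold change was -6.27 (SE 0.35, adjusted p = 4.2e-08). Those of the auxiliary subunit genes were -2.54 (SE 0.24, adjusted p = 1.99e-06) for Shisa7 and -2.51 (SE 0.17, adjusted p = 1.75e-07) for Shisa9. Of 24 tested genes for postsynaptic scaffolds and adhesion, 13 were lower and 2 higher between genotypes (62.5%, against 57.2% of all genes, median -0.41), with Shank1 (-2.64, SE 0.22, adjusted p = 7.6e-07), Dlgap1 (-1.78, SE 0.08, adjusted p = 1.17e-08) and the neuroligin Nlgn2 (-1.43, SE 0.11, adjusted p = 4.72e-07) changing most. With Igfbp2, 4 were higher and 1 lower (20.8%, against 25.0%).

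Of 20 tested genes for transport and metabolism of the transmitters, 8 were higher and 7 lower between genotypes (75.0%, against 57.2% of all genes, median 0.00), and 6 higher and 1 lower with Igfbp2 (35.0%, against 25.0%). As for the receptor genes, the split between higher and lower with Igfbp2 is given with TMM factors, and was not computed for these lists on the other scales. The glutamate transporter gene Slc1a1 stood at 272, 258, 91.1 and 215 CPM in WT and at 7.6 to 10 CPM in vehicle-treated libraries (log2 fold change -4.62, SE 0.30, adjusted p = 1.1e-07). Slc1a5, a neutral amino acid transporter that carries glutamine, rose from 1.78 to 2.01 CPM in WT to 8.15 to 10.7 CPM (2.32, SE 0.13, adjusted p = 5.89e-08), and the GABA transporter gene Slc6a13 from 0 to 0.459 CPM to 2.01 to 3.22 CPM (3.86, SE 0.60, adjusted p = 0.000112). Slc7a11, the cystine-glutamate exchanger, was the one gene of the 3 lists called between treatments with a change above 1 on the log2 scale. It stood at 19.7 to 33.3 CPM in vehicle-treated and 49 to 63.7 CPM in Igfbp2-treated libraries (1.13, SE 0.20, adjusted p = 0.00233).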

How the data were processed

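Ribosomal-RNA-depleted RNA from 12 NSC cultures, 4 per group, was sequenced. Per the labels, the authors mapped reads to GRCm38 with Bowtie2 and RSEM (versions, annotation release and strand setting not given in the sources used here) and deposited, for each library, the expected counts, TPM and FPKM of RSEM. The deposited table of all samples holds a score in place of TPM, summed over merged rows by the authors. It served for gene symbols, and each of its 12 columns was nearest in rank to its own library. FPKM were not used.

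Expected counts were rounded (15.9% were not whole), filtered with filterByExpr to 15706 genes and tested with edgeR 4.0.16 (quasi-likelihood, TMM, 3 groups, two-sided) in R 4.3.3, with Benjamini-Hochberg adjustment over those genes and a threshold of 0.05. The method was tested on simulated data with the same spread in every gene and group and with few genes changed. Spread within groups (biological coefficient of variation) was 0.25 in WT, 0.116 in vehicle-treated and 0.122 in Igfbp2-treated libraries, which that simulation did not cover. CPM used TMM-scaled totals, and shares and ratios used TPM. Counting limits precision for genes with few counts, and intervals cover counting error only. Alternatives were DESeq2 1.42.0, limma 3.58.1 on log2(TPM + 1), a one-way analysis with Tukey's test on TPM, library totals, no filter, only the groups compared, the culture pairs as a block and leaving out each library. The closest replicates differed by more than sampling noise (chi-square per degree of freedom 4.4), so none was the same library sequenced again. Whether libraries of a group came from a shared source was not tested.

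The pairing of cultures comes from the study's sample sheet. Deviations from group means correlated at -0.0673 to 0.0328 for paired libraries (n = 4 pairs) and at -0.248 to 0.257 for the others. Positions and coding sequences came from GENCODE M21, and promoters from RefSeq (GRCm38.p6). Some receptor genes are counted but not reported here by name or value. In the 3 lists of related genes, named genes were the 3 with the largest change between genotypes among those called, and those called with Igfbp2 at a size of 1 or more. Receptor genes, lists and the promoters printed were chosen with earlier results of these data known.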

Additional observations from a re-analysis of the deposited data

Results flagged for a closer look

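Of 87 groups of 4 libraries examined, 6 held a library whose gap to its nearest neighbour exceeded Dixon's 95% critical value as a share of the group's range, and chance gives about 1 in 20. In WT replicate 11, Gria1 stood at 26.5 CPM (the others 9.77 to 11.1) and Grin1 at 2.78 CPM (4.1 to 4.29). Gria4 stood at 29.5 CPM in vehicle-treated replicate 4 (25.2 to 25.9) and at 24.1 CPM in Igfbp2-treated replicate 8 (19.9 to 20.4). Grid1 stood at 18.7 CPM in Igfbp2-treated replicate 5 (22.6 to 23.2) and Gabbr2 at 3.14 CPM in Igfbp2-treated replicate 8 (1.72 to 1.86).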

How the results depend on the processing

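The count of receptor genes called between genotypes was 26 as reported and 22 to 27 under the alternatives that kept all libraries of both groups, apart from 14 with Tukey's test on TPM. For Igfbp2-treated against WT cells it was 28 as reported, and 19 with Tukey's test. For treatment it was 9 as reported, 18 of 30 tested when only the 2 groups were fitted, and 2 of 44 with Tukey's test. DESeq2, library totals and limma on log2(TPM + 1) gave 12, 12 and 13. Leaving out 1 library at a time gave 23 to 28, 7 to 15 and 24 to 29 genes for genotype, treatment and Igfbp2-treated against WT. With culture pairs as a block the counts were 24, 7 and 25, and the calls this ended are given beside the genes described. That pairing is the study's, and Y-linked transcripts differed within every pair, so the block may not match the cultures. Shares of all genes are not given for most of these settings. The counts alone thus do not show whether receptor genes moved more than others. The treatment value of Gabbr1 was -0.09 with Tukey's test and -0.11 with limma on log2(TPM + 1), and the value of Grin2b between Igfbp2-treated and WT cells was 0.01 with both. Over all genes, 4329 passed with Tukey's test between genotypes (8978 as reported), 5592 between Igfbp2-treated and WT cells (9801), and 2149 for treatment (3923). For treatment it was 5906 with library totals, 6354 with limma on log2(TPM + 1), 2550 without Igfbp2-treated replicate 6, and 2320 and 2294 without vehicle-treated replicates 1 and 2. The cause was not tested. Genes called under every alternative numbered 14 of 26, 2 of 9 and 17 of 28. Depth limits the genes with under 10 counts in a library, such as Grm7 and Grin2c in Ncf1-/- cells, where no difference between treatments was detectable at this depth.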
